A study of Mus musculus with 4 samples.

Results

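This account covers 9 genes for chemokine receptors on mouse chromosome 9: Cx3cr1, Ccr8, Ccr1, Ccr1l1, Ccr3, Ccr2, Ccr9, Cxcr6 and Ccrl2. The members were taken as a list of genes, and the measurements at each are the rows of the authors' tables that lie inside the gene or within 10000 bp of it in GENCODE release M21 on GRCm38 (mm10). They are 9 of 21938 protein-coding genes annotated on the chromosomes used. Together their windows cover 483 kb, and 175 positions listed as differing between the groups lie in them.

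Chemokine receptors are membrane receptors with 7 transmembrane helices that couple to G proteins and steer cells along gradients of small secreted proteins, the chemokines. Cx3cr1 binds fractalkine (Cx3cl1), which neurons carry on their surface, and it is a standard marker of microglia, the macrophages that reside in brain tissue. Ccr2 by contrast marks inflammatory monocytes of the blood, and its main ligand is Ccl2. Methylation of cytosine, mostly in the dinucleotide CpG, is often low at promoters and enhancers in the cell types that use them.

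The samples were microglia sorted by flow cytometry from untreated C57BL/6J mice 3 months of age, isolated without enzymes. There were 2 samples labelled WT and 2 labelled IRF8KO, a knockout of IRF8, a transcription factor of myeloid cells. The labels do not say in which cells or by which allele Irf8 is missing, nor whether the samples of a group came from separate animals. The deposited p-values thus cover at most the spread between these samples, which may be technical. At 22 of the 36 positions called below, the spread entered in both groups is the commonest value of the whole list. There the p-value does not measure the spread between these samples at that position. DNA from 40000 cells was converted with bisulfite, which leaves methylated cytosines unchanged, and sequenced over the whole genome, so that the identity of the cells could not be checked against marker expression.

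Both tables are the authors' comparison of one numbered group with the other, and no column gives a value for a single sample. The group numbers are not tied to a genotype, so every difference is the first minus the second group on a scale from 0 to 1, and "higher" means higher in the first group. One table lists 269406 single positions with a difference, its standard error (SE) and a false discovery rate (FDR), and the other lists 3389 regions. A position is called here when its deposited FDR is under 0.05. Over the whole list 18.7% of positions were called. The list is not a full record of what was tested: its row numbers run to 42734461, of which the listed positions are 0.63%, and a position that is not listed has no value. Neighbouring positions often carry the same fitted difference, and replicate spread and read depth are unknown.

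Listed positions lay inside or within 10000 bp of 8 of the 9 receptor genes, and Ccr8 had none. Of the 175 positions, 36 were called (20.6%), a share near the 18.7% of the whole list. Of these 36 calls, 10 lie inside the annotated span of a member and the others in the flanks. At least 1 called position lay at 8 of 9 members, while 30.8% of all protein-coding genes had one within the same distance and 64.1% had a listed position. A called region lay at 5 of 9 members, against 9.19% of all protein-coding genes. At Cx3cr1 and Ccr9 it counts only through a long transcript, and within 10000 bp of the main transcripts 3 of 9 members had a region (Cxcr6, Ccr1l1 and Ccr3). The shares over all genes were counted on whole annotated genes, so they have no counterpart for main transcripts. Windows differed in size, from 21.2 kb at Ccr1l1 to 188 kb at Cx3cr1, with a median of 37.4 kb over all genes, and those of Ccr1 and Ccr1l1 share 4 listed positions.

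The direction was mixed. Of the listed positions, 116 were higher and 59 lower, a share of 66.3% higher, beside 66.8% over chromosome 9 and 61.9% over all listed positions. Of the called positions, 23 were higher and 13 lower, a share of 63.9% higher, beside 69.4% of those on chromosome 9 and 58.1% of all called. Of the 7 regions, 4 were higher and 3 lower, and 53.3% of all regions were higher. Calls at Ccr9, Ccr1, Ccr2 and Ccrl2 were all higher. At Ccr1l1, 7 of 8 calls were lower, and at Cxcr6 3 of 5 were lower. The median absolute difference over the listed positions at members was 0.354, with a median deposited SE of 0.105, and 0.329 over the whole list.

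**Figure D1:**
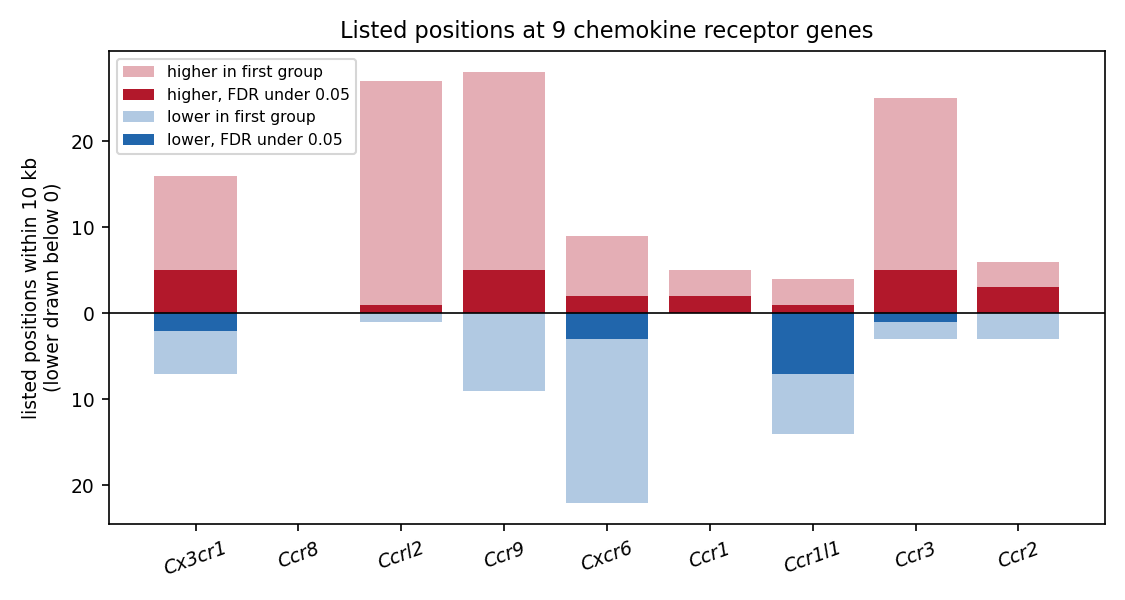
Number of listed positions within 10000 bp of each receptor gene, with those higher in the first group drawn above 0 and those lower drawn below 0; dark parts are positions with a deposited FDR under 0.05. Ccr8 has no bar, Cxcr6 and Ccr1l1 lie mostly below 0, and 27 of the 28 positions at Ccrl2 lie above it.

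Cx3cr1 is annotated on the minus strand at 119901616 to 120069879 (ENSMUSG00000052336.7), but that span is set by a long transcript. Its main transcript, Cx3cr1-201, covers only 19614 bp, from 120068296 down to 120048683, and starts at the RefSeq start. The long transcript runs on over Xirp1, Csrnp1, Ttc21a and Gorasp1 and ends inside Wdr48. Of the 23 listed positions in the window of the whole gene, 6 lie within 10000 bp of the main transcript and 2 inside it.

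Both positions inside the main transcript were lower, in an intron. At 120054149, which is 14147 bp downstream of the start, the difference in the authors' deposited table was -0.323 (SE 0.0778, FDR 0.0320). At 120062779, which is 5517 bp downstream of the start and the nearest listed position to it, the same table gives -0.232 (SE 0.0621, FDR 0.117). For the first, the other cytosine of its CpG is not listed, and in 1 group the spread entered is the commonest value of the whole list. The first was the only call within 10000 bp of the main transcript. The other 4 positions of that window lie together, 8059 to 8121 bp past the transcript's end, and were higher by 0.269 to 0.286 in the authors' deposited table with no FDR below 0.601.

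The other calls counted for Cx3cr1 lie far from it. One, at 119992790 and 75506 bp downstream of the start, differed by -0.366 in the authors' deposited table (SE 0.0812, FDR 0.00947). It lies in a stretch covered by the long transcript alone. The other cytosine of its CpG had the same difference with an SE of 0.142 in that table and was not called. For the called cytosine, the spread entered in both groups is the commonest value of the whole list. The remaining 5 calls were higher and lie in an intron of Wdr48, past the end of the long transcript and at least 168112 bp from the start of the main one. There the largest difference was at the CpG at 119900183, where the authors' deposited table gives 0.591 for both cytosines, with an FDR of 0.000279 for one and 4.07e-07 for the other. All 12 listed positions past the end of the gene were higher. The 11 listed positions inside the annotated gene split into 4 higher and 7 lower.

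The region counted for Cx3cr1 is in this Wdr48 intron too. It spans 257 bp, 1853 bp past the end of the annotated gene and 168533 bp from the start of the main transcript, with a difference of 0.406 in the authors' deposited table. Only 2 CpGs lie in it, one at its start and the other near its end, and no repeat is masked there. It is printed to show how little of it is CpG, on the plus strand of GRCm38 with the 5 listed cytosines, or the G opposite one, in capitals.
Cx3cr1 region, chr9:119899507-119899763: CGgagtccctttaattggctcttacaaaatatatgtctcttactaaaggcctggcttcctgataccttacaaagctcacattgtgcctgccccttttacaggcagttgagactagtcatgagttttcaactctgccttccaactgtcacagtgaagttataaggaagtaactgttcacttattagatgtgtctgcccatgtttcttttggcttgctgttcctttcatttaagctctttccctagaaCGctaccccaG

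**Figure D2:**
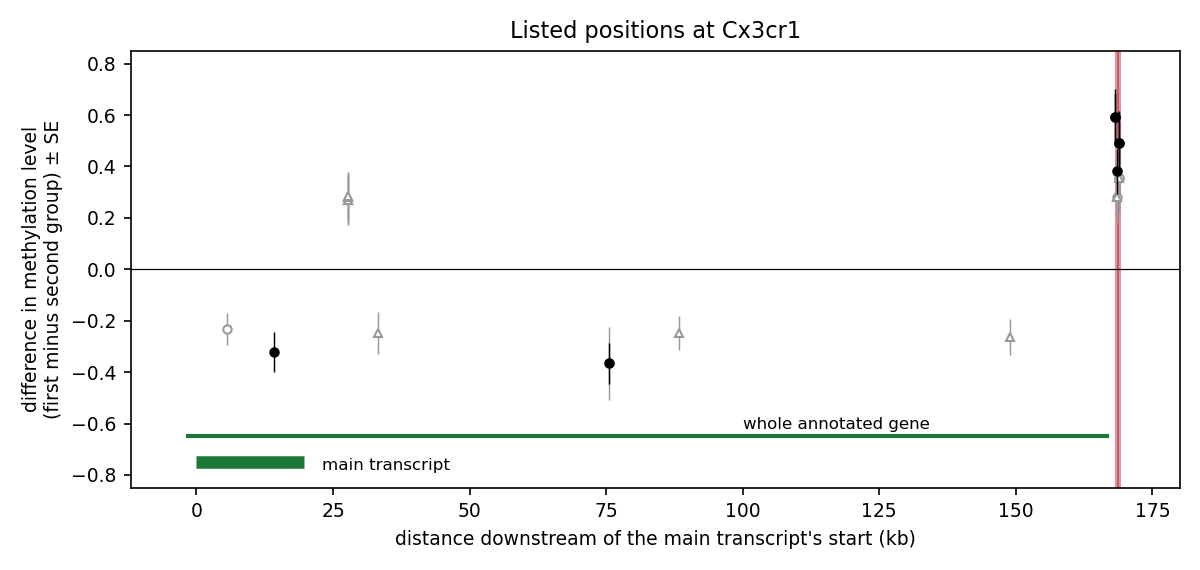
Difference in methylation level (first minus second group, points) with the deposited SE (bars) against distance downstream of the start of Cx3cr1-201 in kb. Circles are CpGs, triangles other cytosines, black points have an FDR under 0.05, the red band is the called region, and green bars mark the main transcript and the whole annotated gene; 2 points lie over the main transcript, both below 0, and the band lies past the gene's end.

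Around the start of Cx3cr1 nothing was listed. From 120062779 in the Cx3cr1 intron to 120313879, a stretch of 251 kb that holds the Cx3cr1 promoter and all of Ccr8, the row numbers count 7579 tested positions, none of them listed. Between neighbouring listed positions on chromosome 9 the median number of tested positions was 0, and 8 of 13560 gaps, this one included, held at least as many. The position that ends the gap differed by 0.265 in the authors' deposited table (FDR 0.339). This stretch was described after the values had been seen. The RefSeq promoter of Cx3cr1, the 250 bases before the start, is printed as the sequence of this receptor that the list passes over. It is given 5′ to 3′ along the gene (minus strand, GRCm38), with its 4 CpGs in capitals.
Cx3cr1 promoter, chr9:120068297-120068546: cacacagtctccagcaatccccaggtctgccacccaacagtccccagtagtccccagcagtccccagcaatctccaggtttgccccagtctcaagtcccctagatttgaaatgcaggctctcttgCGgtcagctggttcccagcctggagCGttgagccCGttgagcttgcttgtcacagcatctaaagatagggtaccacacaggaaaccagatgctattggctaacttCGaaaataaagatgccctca

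Ccr8 (ENSMUSG00000042262.5, 120092114 to 120094906, plus strand), the receptor of Ccl1 on regulatory and Th2 T cells, starts 23818 bp from the Cx3cr1 start, inside the same gap. Its window held about 688 tested positions, read from the row numbers by interpolation, and no listed one. Its end lies 218973 bp from the next listed position. What the levels were there, and whether the groups differed by less than the list requires, cannot be read from the tables.

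**Figure D3:**
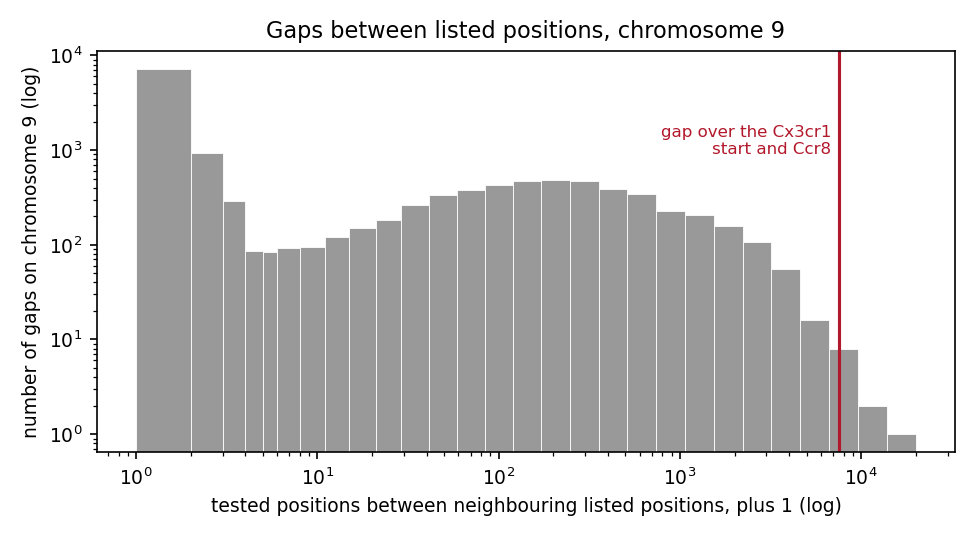
Number of gaps between neighbouring listed positions on chromosome 9 (y axis, log) by the number of tested positions in the gap plus 1 (x axis, log). The red line marks the gap over the Cx3cr1 start and Ccr8, with 7579 tested positions, in the far right of the distribution.

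The inflammatory CC receptors Ccr1, Ccr1l1, Ccr3 and Ccr2 lie next to each other between 123962124 and 124113557. Ccr1 (ENSMUSG00000025804.5, 123962124 to 123968692, minus strand), a receptor of Ccl3 and Ccl5 on monocytes and neutrophils, had the call nearest to a start among the members. It lies 23 bp upstream of the start, at the only CpG of the RefSeq promoter window. The authors' deposited table gives both cytosines of that CpG a difference of 0.479. At 123968715 the SE was 0.0327 and the FDR 3.38e-42 in the authors' deposited table, the smallest among the members. At 123968714, the other cytosine of the same CpG, the SE was 0.139 and the FDR 0.252 in that table. The call thus rests on 1 of 2 cytosines with 1 fitted difference, and no region was called there.

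The 250 bases before the start of Ccr1 are printed to show this single CpG. They read 5′ to 3′ along the gene (minus strand, RefSeq start on GRCm38), with the CpG in capitals.
Ccr1 promoter, chr9:123968693-123968942: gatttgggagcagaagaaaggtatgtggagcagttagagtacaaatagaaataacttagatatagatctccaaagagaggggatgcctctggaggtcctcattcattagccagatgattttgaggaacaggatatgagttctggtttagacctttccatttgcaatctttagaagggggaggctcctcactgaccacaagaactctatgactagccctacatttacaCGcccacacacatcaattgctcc

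The other 3 listed positions counted for Ccr1 were also higher, by 0.225 to 0.313 in the authors' deposited table. One of them, at 123959111 past the gene's 3′ end, was called (difference 0.273, SE 0.0655, FDR 0.0298 in the authors' deposited table). The remaining pair, upstream of the gene, was not called.

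Ccr1l1 (ENSMUSG00000064039.4) encodes a receptor similar to Ccr1 whose role is less well defined. GENCODE annotates it at 123977243 to 123978408 on the minus strand, 1166 bp, while its RefSeq start lies 8307 bp further upstream, at 123986715. All 14 positions listed upstream of the GENCODE model were lower, 7 of them called, and all lie between 123983921 and 123984539, inside the span that RefSeq gives the gene. The 4 listed positions downstream of it are those it shares with Ccr1, all higher, so that the direction turns between the start of Ccr1 and the sequence upstream of Ccr1l1. The lower positions include 2 called regions, 5620 and 6044 bp upstream of the GENCODE start, and 2687 and 2263 bp inside the RefSeq start when measured to the same edges. In the authors' deposited table the nearer differed by -0.452 (80 bp, 8 cytosines) and the other by -0.354 (88 bp, 4 cytosines). The nearer held 6 called positions, the smallest FDR being 0.00176 in the authors' deposited table at 123984107 (difference -0.499, SE 0.101), and the other held none. The position nearest the GENCODE start, at 123983921 and 5513 bp upstream, differed by -0.394 in the authors' deposited table (SE 0.0919, FDR 0.0203).

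None of the 7 calls upstream of Ccr1l1 lies on a CpG of the reference. The first region holds 1 CpG, and 6 of its 8 listed positions are cytosines of other context. Both cytosines of that CpG carry the same difference as the called position at 123984107, -0.499 in the authors' deposited table, but were not called. Their SEs were 0.175 and 0.172 and their FDRs 0.905 and 0.817 in that table. The region is printed on the plus strand of GRCm38, with the listed positions in capitals, to show where they lie.
Ccr1l1 region, chr9:123984028-123984107: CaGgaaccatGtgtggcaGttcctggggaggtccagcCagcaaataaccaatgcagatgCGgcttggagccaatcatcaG

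Ccr3 (ENSMUSG00000035448.9, 124021972 to 124031689, plus strand) is the eotaxin receptor of eosinophils, which binds Ccl11 and Ccl24. Of its 28 listed positions 25 were higher, and its calls comprised 5 higher and 1 lower. The region of 142 bp lies 2148 bp upstream of the start, with a difference of 0.445 in the authors' deposited table and 4 called positions among 8. The smallest FDR was at 124019801, outside a CpG, where the authors' deposited table gives 0.465 (SE 0.0869, FDR 0.000304). The positions around the region ran the same way, with all 18 listed positions from 4701 to 1825 bp upstream higher. Further out, at 6656 bp upstream, a CpG was lower by -0.383 in the authors' deposited table (SE 0.0760, FDR 0.00119 for the called cytosine). The position nearest the start, 15 bp inside the first exon in UTR sequence, was higher by 0.350 in the authors' deposited table and was not called (SE 0.0999, FDR 0.214).

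The Ccr3 region is printed on the plus strand of GRCm38 with its 8 listed positions in capitals. They comprise both cytosines of each of its 3 CpGs and 2 positions outside CpGs.
Ccr3 region, chr9:124019683-124019824: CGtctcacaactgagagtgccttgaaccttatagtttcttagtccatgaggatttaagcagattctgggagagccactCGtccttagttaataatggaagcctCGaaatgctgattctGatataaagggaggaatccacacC

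Ccr2 (ENSMUSG00000049103.14, 124101950 to 124113557, plus strand), the Ccl2 receptor that lets monocytes leave the bone marrow, had 9 listed positions and no region. Its 3 calls were all higher and lie in the annotated gene but past the end of its main transcript, Ccr2-201 (124102183 to 124108550). Both cytosines of the CpG at 124108608, in UTR sequence of other transcripts and 6425 bp downstream of the start of Ccr2-201, differed by 0.502 in the authors' deposited table, with FDRs of 0.0142 and 0.00303. They are also the listed positions nearest to that start, and the SEs were 0.114 and 0.104 in the authors' deposited table. The third call, in an intron at 124112192 and outside a CpG, differed by 0.389 in the authors' deposited table (SE 0.0920, FDR 0.0254). No position of the Ccr2 promoter was listed. The 3 lower positions, between -0.228 and -0.251 in the authors' deposited table, lie past the gene's 3′ end and were not called.

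The lymphocyte homing receptors Ccr9 and Cxcr6 lie upstream of this cluster. Ccr9 (ENSMUSG00000029530.16, 123678439 to 123784330, plus strand) guides T cells to thymus and small intestine along Ccl25. Its annotated gene is long because 1 transcript starts far upstream and runs over Lztfl1, while the main transcript Ccr9-203 covers 17120 bp from 123767211. All 5 calls lie in the main transcript, and all were higher. The largest difference among the members was there, at the CpG at 123782415 in UTR sequence, where the authors' deposited table gives 0.676 for both cytosines. Both were called, with an FDR of 8.42e-05 (SE 0.120) for one and 8.99e-34 (SE 0.0513) for the other in the authors' deposited table. The other 3 calls lie in an intron at 123774957, 123778428 and 123778655, with 0.262, 0.427 and 0.439 in the authors' deposited table. Those at 123778428 and 123778655 lie outside CpGs.

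The listed positions upstream of Ccr9-203 went both ways and none was called. The nearest to its start, 1323 bp inside, was higher by 0.298 with an FDR of 1 in the authors' deposited table. A region of 82 bp lies 10201 bp upstream of that start, with 0.267 in the authors' deposited table, and it counts for Ccr9 only through the long transcript. It held 5 listed positions, none called, 4 of them outside CpGs.

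Cxcr6 (ENSMUSG00000048521.8, 123806475 to 123811760, plus strand), the Cxcl16 receptor of tissue-resident lymphocytes, lies within the gene Fyco1 on the other strand. Of its 31 listed positions 9 were higher and 22 lower. Upstream of its start lie 2 regions of opposite direction. The farther, 126 bp and 5102 bp upstream, overlaps a coding exon of Fyco1 and differed by -0.368 in the authors' deposited table. The nearer, 248 bp and 2439 bp upstream, lies in a Fyco1 intron and differed by 0.343 in the authors' deposited table. Each held 7 listed positions, of which 1 was called and lies outside a CpG, its FDR in the authors' deposited table being 0.0388 in the farther and 0.000198 in the nearer. The listed position nearest the start of Cxcr6 ends the nearer region, where the authors' deposited table gives 0.310 (SE 0.0940, FDR 0.350).

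Both regions are printed on the plus strand of GRCm38 with listed positions in capitals, since they differ in direction so close to each other. Each holds 3 CpGs, all with both cytosines listed. Repeats mask 45.2% of the nearer region and none of the farther one.
Cxcr6 region lower in the first group, chr9:123801248-123801373: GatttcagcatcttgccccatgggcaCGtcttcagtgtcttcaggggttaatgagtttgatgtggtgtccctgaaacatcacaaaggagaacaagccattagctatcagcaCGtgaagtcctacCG
Cxcr6 region higher in the first group, chr9:123803789-123804036: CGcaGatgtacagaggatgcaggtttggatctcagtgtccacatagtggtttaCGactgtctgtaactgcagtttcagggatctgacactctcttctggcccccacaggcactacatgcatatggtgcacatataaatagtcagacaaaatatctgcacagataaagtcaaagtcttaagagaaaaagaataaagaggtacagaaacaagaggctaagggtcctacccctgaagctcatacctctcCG

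The smallest FDRs at Cxcr6 lie outside both regions. At 123798495, 7980 bp upstream, the authors' deposited table gives 0.388 (SE 0.0442, FDR 1.1e-13), and at 123813535, past the gene's 3′ end, -0.439 (SE 0.0567, FDR 3.32e-10). The other cytosine of each of these CpGs had the same difference and an FDR of 1 in the authors' deposited table.

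Ccrl2 (ENSMUSG00000043953.12, 111054486 to 111057519, minus strand) is an atypical receptor that binds the chemoattractant chemerin (Rarres2) without the usual signalling, and it lies apart from the others. It showed many listed positions and hardly any call. Of 28 positions 27 were higher, and 16 of these lie in UTR sequence within the gene, 2058 to 2313 bp downstream of the start of Ccrl2-201. Their differences in the authors' deposited table ran from 0.321 to 0.354, and the smallest FDR among them was 0.569. The single call, 1692 bp upstream of the start and also the nearest listed position to it, was higher by 0.367 in the authors' deposited table (SE 0.0836, FDR 0.0146). The other cytosine of its CpG had the same difference and an FDR of 0.558 in that table. No region was called at Ccrl2, and its 28 positions form 5 clusters within 500 bp.

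**Figure D4:**
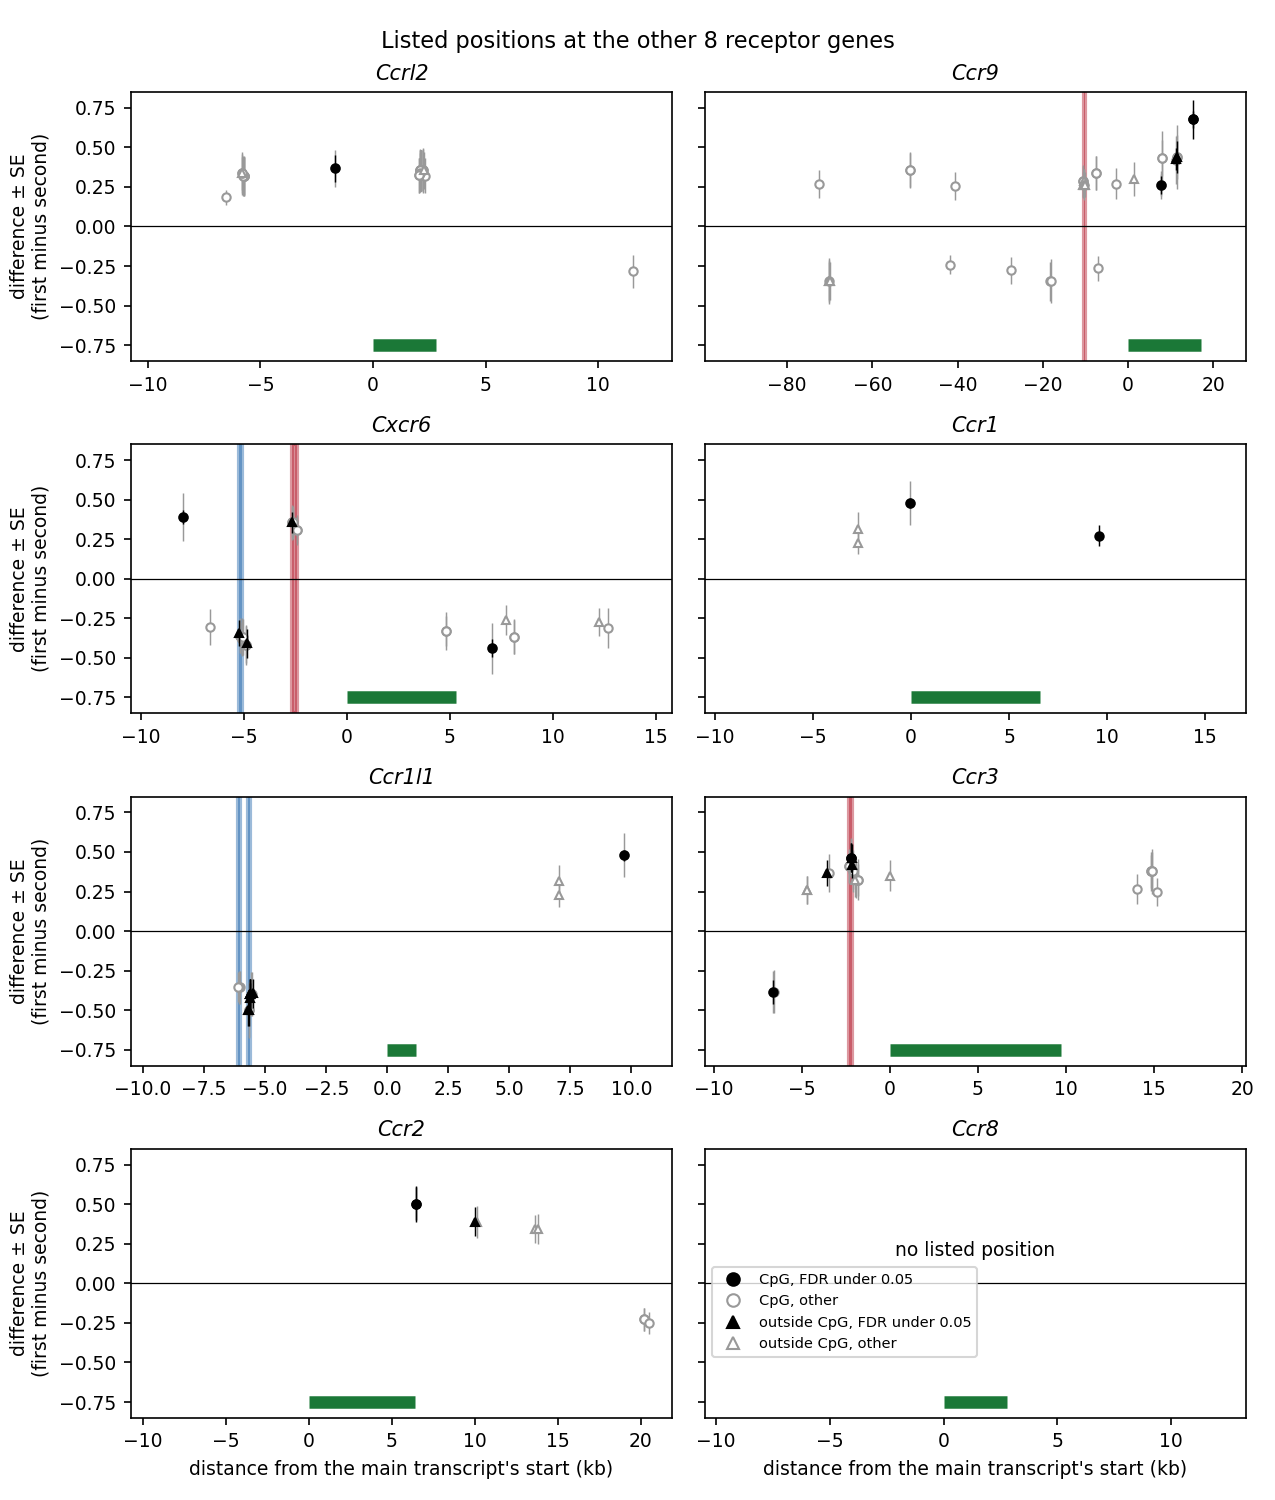
Difference in methylation level (first minus second group) with the deposited SE for each listed position at the other 8 receptors, against distance from the start of the main transcript (green bar) in kb, with negative values upstream. Circles are CpGs, triangles other cytosines, black points have an FDR under 0.05, and red and blue bands are regions higher and lower in the first group. Cxcr6 has a blue and a red band upstream, and Ccr8 has no point.

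Many calls at a CpG rested on a single cytosine. At the members 80 CpGs had a listed cytosine, and 47 had both listed. Both cytosines had the same difference, within 1e-06, in 45 of the 47 (95.7%), and in 96.2% of such CpGs over the whole list. Among the 14 of these CpGs with a call, 10 had only 1 of the cytosines called (71.4%), beside 61.0% over the whole list. The 4 with both called were 2 CpGs in the Wdr48 intron past Cx3cr1, 1 in Ccr9 and 1 in Ccr2. Where both carry the same difference, what sets them apart is the deposited SE, as at Ccr1. The dispersion, the spread that the authors' fit assigned to a position, also differed: 22 of the 36 called positions carry in both groups the commonest value of the table (0.0571 and 0.0558 in the authors' deposited table), 5 carry it in 1 group and 9 in neither. All 7 calls upstream of Ccr1l1 are among the 22, and the matching share of all called positions is not given here.

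**Figure D5:**
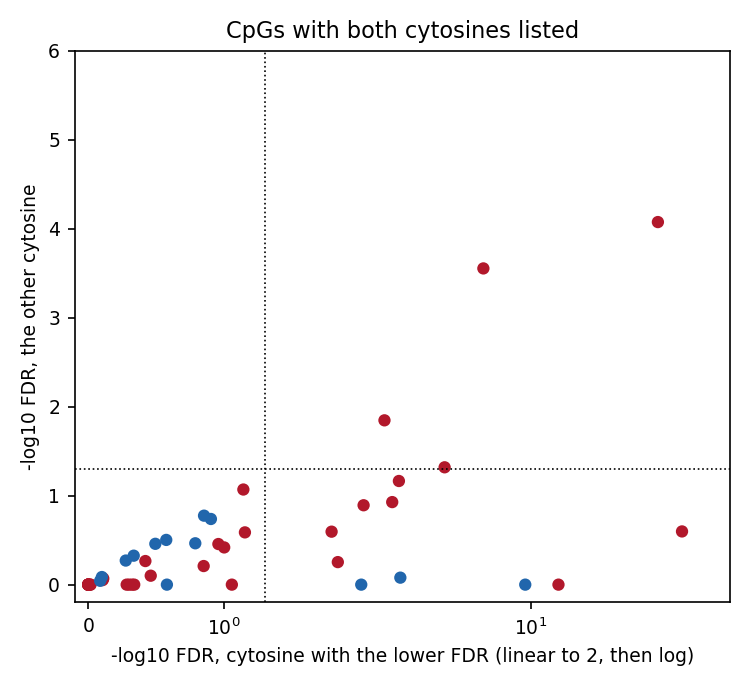
For the 47 CpGs at the members with both cytosines listed, -log10 of the FDR of the cytosine with the lower FDR (x axis, linear to 2, then log) against that of the other (y axis, linear), red where higher and blue where lower in the first group. Dotted lines mark an FDR of 0.05; 4 CpGs lie above both lines, and 10 lie to the right of the vertical line only.

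Cytosines outside CpGs made up 48 of the 175 listed positions (27.4%, beside 22.0% over the whole list) and 16 of the 36 called (44.4%, beside 27.7% of all called). All 48 lie on a C or G of the reference. The sample titles name mCpG, and why the list holds cytosines outside CpGs is not known. Each of the 16 called ones carries the commonest dispersion of the list in both groups. Their p-values thus do not measure the spread between these samples at those positions. At Cx3cr1 all 7 calls lie on CpGs. The 7 regions were 80 to 257 bp long with 4 to 8 cytosines, and each held 1 to 3 whole CpGs. Over all regions the medians were 199 bp and 9 cytosines. The 7 thus held fewer cytosines than the median, but not all were shorter. Of the 36 called positions 15 lie in a region, and 5 of the 7 regions hold a called position.

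The listed share of tested positions differed widely between the members. It was 0.347% at Cx3cr1 and 0 at Ccr8, where 35.2 and 30.2 positions per kb were tested. The highest shares were 11.6% at Ccr3, 9.76% at Cxcr6 and 8.59% at Ccr1l1. Below these came Ccrl2 at 4.40%, Ccr2 at 3.75%, Ccr9 at 2.09% and Ccr1 at 2.02%. Over all gene windows the median was 0.175% and the 95th percentile 2.53%. Windows with few tested positions had higher shares: among the 5517 genes with under 15 tested positions per kb, a limit chosen after the values were seen, the median was 0.686% and the 95th percentile 3.36%. Ccr9, Cxcr6, Ccr1, Ccr1l1, Ccr3 and Ccr2 belong to these, with 7.59 to 14.0 per kb. The listed positions of Ccr3, Cxcr6, Ccr1l1 and Ccr2 form 7, 8, 3 and 4 clusters within 500 bp, so the counts behind these shares are few separate stretches.

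IRF8 binds DNA with the ETS factor PU.1 at a composite element, searched here as GGAA, any 2 bases and GAAA on both strands. None of the 7 regions at the receptor genes held it, nor did the 300 bp around the middle of any of them, where 11.2% of all regions did (2.38% of those higher and 21.3% of those lower in the first group). A second search, for GAAA, any 2 bases and GAAA, found no match in the same windows either, against 5.28% of all regions. GAGGAA, a form of the ETS core, was present once, in the Ccr3 region, against 31.7% of all regions. None of the 11 RefSeq promoters of the members, each of 300 bp, held the composite element or the second motif, beside 2.72% and 3.44% of 32851 promoters. GAGGAA was present in 2 of the 11, at Ccr1 and Ccr3, beside 28.3% of all promoters. A match or its absence says only which letters the window holds.

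The other receptors and ligands of the family are on a list of 30 genes, 14 receptors and 16 ligands. A listed position lay at 20, a call at 10 and a region at 3, beside 64.1%, 30.8% and 9.19% of all protein-coding genes. Calls were higher at 4 genes and lower at 7, Ccl6 having both. Ccr6, the Ccl20 receptor, had 143 listed positions, all lower, 70 calls and 6 regions between 1019 and 9938 bp from the gene on chromosome 17, which differed by -0.329 to -0.569 in the authors' deposited table. Ackr2, a scavenger of CC chemokines on chromosome 9, had a region inside the gene at -0.449 in the authors' deposited table and 10 calls, all lower. Cxcr5, the B cell follicle receptor on the same chromosome, had a region at 0.382 in the authors' deposited table, 5361 bp from the gene.

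No ligand had a region. Cx3cl1, the ligand of Cx3cr1, had 7 listed positions and 1 call, inside the gene at 94775011 on chromosome 8 (difference -0.388, SE 0.0621, FDR 3.26e-06 in the authors' deposited table). Ccl5, which binds Ccr1 and Ccr3, had 2 calls, both lower, one of them 8209 bp from the gene. Ccl1, the Ccr8 ligand, had 1, lower by -0.448 (FDR 0.0215) in the authors' deposited table. That call, at 82201277, lies inside a long annotated gene, from 82176657 to 82305690 on chromosome 11. Ccl6 had 1 call in each direction, the higher one 9072 bp from the gene. Cxcr2 and Xcr1 each had 1 call, higher, inside Cxcr2 and 7864 bp from Xcr1. Cxcr4 had 1 call, 3477 bp from the gene and lower by -0.374 (FDR 0.000452) in the authors' deposited table.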

How the data were processed

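Whole-genome bisulfite libraries of 4 microglia samples, 2 per genotype, were made from 50 ng of DNA with 8 cycles of PCR and read as pairs of 75 bp, per the labels' protocols. Trim Galore, Bismark and mm10 are named in the submitters' processing notes, without versions. Which program called positions and regions, and how it was set, is not given in the sources used here. Per the file headers, the authors' deposited tables give a difference, SE, statistic, dispersions, p-value and FDR per position, and length, cytosines and difference per region. The smallest deposited posterior probability was 0.95. Levels per group were not used, since no header ties them to a genotype, and 0 columns hold single samples.

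Python 3.11.15, pandas 2.3.3 and pysam 0.24.0 were used to count rows in windows of GENCODE M21 genes with 10000 bp on each side, after checks on simulated positions. The main transcript of a gene is the one whose start lies nearest a RefSeq start. Tested positions were read from the deposited row numbers, by interpolation for windows. Sequences are those of GRCm38, and promoters those of RefSeq (GRCm38.p6). No test was added, and with no counts the depth is unknown. For each member every region, the position with the smallest FDR and the one nearest the start are named, and of the other family genes those with a region or a call. The members and lists were chosen with earlier results of these data known. Other FDR limits, flanks, gene models, reference CpGs, dispersions and clusters were tried.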

Additional observations from a re-analysis of the deposited data

How the results depend on the processing

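No paired analysis was possible because no deposited column holds a single sample, and for the same reason leaving out each replicate and a coverage minimum were not run. The main transcript of every member and the share without Ccrl2 were added after seeing the data. Of 36 alternatives, 20 left the result within 1.5 times the count or within its interval, 16 moved it and 0 reversed it. The 36 called positions were 22 with an FDR under 0.01, 12 under 0.001, 20 at reference CpGs, 9 with dispersions of their own in both groups, 19 as clusters within 500 bp and 10 without flanks. The 7 calls counted for Cx3cr1 were 4 with an FDR under 0.01, 3 under 0.001, 3 as clusters, 2 without flanks and 1 at the main transcript. The 7 regions were 4 with flanks of 5000 bp, 1 without flanks and 12 with flanks of 50000 bp. The 5 receptor genes with a region were 3 at the main transcripts of the members, where those with a call remained 8 in number. The 3 other family genes with a region were 9 with flanks of 50000 bp. These alternatives admit fewer or more positions or regions by construction. The share of listed positions higher in the first group was 66.3% (95% Clopper-Pearson interval 58.8 to 73.2, counting error only). That interval takes positions as independent, though neighbours often carry 1 fitted difference, so it is too narrow. An even split is not the background either, as 66.8% of listed positions on chromosome 9 and 61.9% of all were higher. Higher stayed the larger share in the alternatives run. It ranged from 60.0% over clusters (45.2 to 73.6, which includes an even split) to 68.5% at positions with their own dispersions. Among the called positions the interval, 46.2 to 79.2, also includes an even split.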
